A study of Mus musculus with 6 samples.

Results

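Type III cells are the sour-sensing, presynaptic cells of the taste bud. The genes described here are 8 that mark these cells or work in them, namely Pkd2l1, Pkd1l3, Otop1, Snap25, Gad1, Ddc, Chga and Ncam1. They were chosen by name for that role, and all 8 were found among the 23361 genes of the deposited table. The study compared RNA of taste cells from the circumvallate and foliate (CV/Fol) papillae, which hold the taste buds of the rear tongue, between C57BL/6 mice of 2 and 6 months of age. Each age had 3 libraries, for each of which isolated cells of several mice were pooled. The cells were freed from the tongue with enzymes, and polyA-selected RNA was sequenced. Sample labels give 2 and 6 months, whereas the design text names 3 and 6 months in one place.

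A taste bud holds glia-like type I cells, type II cells that detect sweet, umami or bitter compounds, and type III cells. Acid reaches type III cells as protons that enter through the Otop1 channel and depolarise the cell. Unlike type II cells, type III cells form conventional synapses with the taste nerve, and they carry vesicle release proteins of the kind found in neurons, serotonin and enzymes that make transmitters.

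The table holds 1 FPKM value per gene and age, pooled over the 3 libraries of that age. FPKM is the number of sequenced fragments scaled by transcript length and library size, so that levels of different genes can be set side by side. Without values per library no SD or error is given for any gene, no test was run, and "higher" and "lower" below state only which of 2 pooled values was larger. The depth of sequencing is unknown, since FPKM values do not carry it. Differences between the ages are log2(FPKM + 1) at 6 months minus the same at 2 months, a scale that understates the change of weakly expressed genes. Genes with a mean over both ages of 1 FPKM or more were taken as expressed, and 12652 genes were, all 8 type III genes among them. Counts of higher and lower genes in the lists below cover expressed genes only, unless weakly expressed genes are said to be included.

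At both ages the sour-cell channel genes were the most abundant of the 8, and the order ran from Pkd1l3 down to Ncam1. At 2 months it was Pkd1l3, Otop1, Pkd2l1, Snap25, Ddc, Chga, Gad1 and Ncam1. The order at 6 months differed only in that Pkd2l1 stood above Otop1. Since the spread of each gene over the libraries is unknown, neighbours in this order cannot be said to differ. Pkd1l3, Otop1 and Pkd2l1 lay above the median level of the expressed genes, which was 11.8 FPKM at 2 months against 11.7 FPKM at 6 months, and the other 5 lay below it. Between the ends of the order, the Pkd1l3 level was 23.0 times that of Ncam1 at 2 months and 36.1 times at 6 months.

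**Figure D1:**
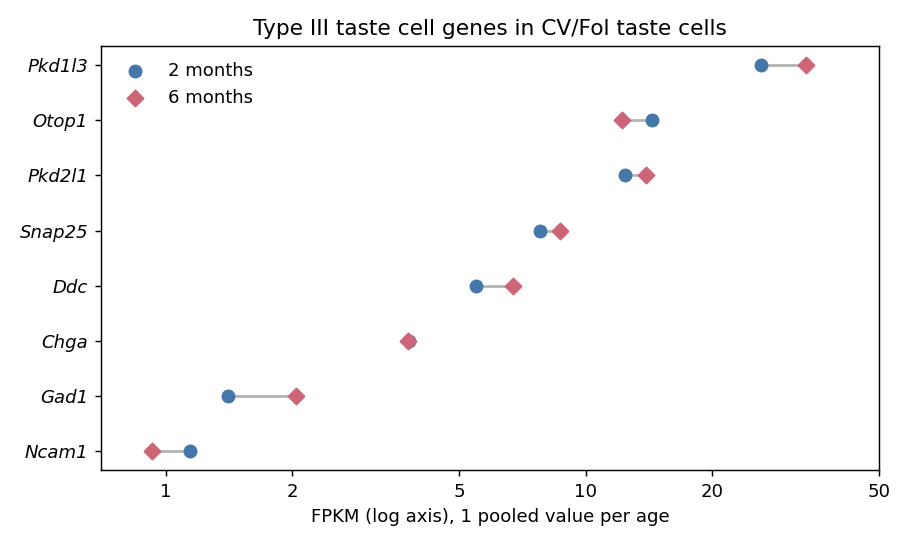
Pooled FPKM of the 8 type III genes on a logarithmic axis, with circles for 2 months and diamonds for 6 months. Values run from 0.928 FPKM for Ncam1 to 33.5 FPKM for Pkd1l3, both at 6 months, and no error bars are drawn because no value per library was used.

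Between the ages, 5 of the 8 genes had a higher value at 6 months (Pkd1l3, Gad1, Ddc, Pkd2l1 and Snap25) and 3 a lower value (Otop1, Ncam1 and Chga). Among all 12652 expressed genes, 46.3% were higher at 6 months. The median log2 difference of the 8 genes was 0.15, beside -0.01 for all expressed genes, whose quartiles were -0.10 and 0.08. None of the 8 differed by 1.5-fold or more, while 1.05% of the expressed genes were higher and 1.72% lower by at least that much. At a smaller limit, a log2 difference of 0.32, 2 of the 8 were higher, Pkd1l3 and Gad1, and 0 were lower. The same limit was passed by 2.95% of the expressed genes in the higher direction and 4.23% in the lower. With 8 genes chosen by name and 2 pooled values for each, these counts describe the list and test nothing. In bulk RNA, fewer cells of a type and less RNA per cell cannot be told apart.

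The count of higher and lower genes depended on how the ages were scaled to each other. Multiplying the 6 month values by 1.02, which gave both ages the same upper quartile, put 6 of the 8 genes and 54.2% of the expressed genes on the higher side. A factor of 1.07, which gave both ages the same summed FPKM without microRNA and small nucleolar RNA genes, also put 6 of the 8 genes but 70.7% of the expressed genes there. The gene that crossed was Chga in both cases, and Otop1 and Ncam1 were lower under every scaling tried. The sum of the 2 month values includes the keratin gene Krt4, which was listed at 0 at 6 months. Leaving Krt4 out, an alternative chosen after the data were seen, gave a factor of 1.06, with 6 of the 8 genes and 66.8% of the expressed genes on the higher side. Median differences of the 8 genes were 0.18 and 0.24 with the same upper quartile and the same sum without small RNA genes, beside 0.01 and 0.07 for all expressed genes. The limit of 0.32 was passed by 3 of the 8 genes, Ddc as well as Pkd1l3 and Gad1, when both ages had the same sum without small RNA genes, and by 5.25% of the expressed genes in the same direction.

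**Figure D2:**
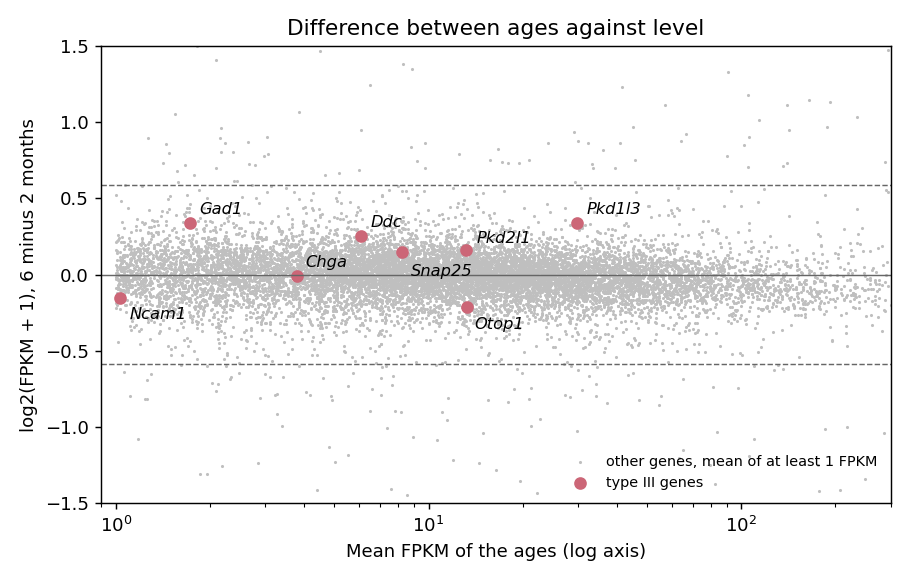
Difference in log2(FPKM + 1), 6 minus 2 months, against mean FPKM for the expressed genes (grey) and the 8 type III genes (named). Dashed lines mark 1.5-fold, inside which all 8 genes lie, and 433 expressed genes with a mean over 300 FPKM or a difference over 1.5 in size are not drawn.

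The channel genes of the acid response came first in level. Pkd2l1 encodes a polycystin channel subunit that serves as a marker of sour-sensing cells, and lies at chr19:44147637-44192442 on the minus strand of GRCm38 with 15 exons. Its value was 12.4 FPKM at 2 months against 14.0 FPKM at 6 months, a ratio of 1.13 and a log2 difference of 0.16. Pkd1l3 encodes the large membrane protein that pairs with Pkd2l1 in taste cells of these papillae, and has 34 exons at chr8:109614517-109674386 on the plus strand. Pkd1l3 was at 26.2 FPKM at 2 months against 33.5 FPKM at 6 months, 1.28 times the earlier value, with a log2 difference of 0.34, close to that of Gad1. The partner genes were therefore higher together, but not in the same proportion, since the ratio of Pkd1l3 to Pkd2l1 was 2.12 at 2 months and 2.40 at 6 months. The downstream end of Pkd1l3 overlaps Ist1, a gene on the opposite strand with 76.4 FPKM at 2 months against 79.2 FPKM at 6 months. The exons of the 2 genes share 127 bases, or 1.92% of the Pkd1l3 transcript. Library preparation is not stated to keep the strand, so reads from that stretch could count for either gene.

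Otop1 encodes the proton channel through which acid enters type III cells, and lies at chr5:38275972-38304217 on the plus strand. It was the only acid-response gene of the 8 with a lower value at the later age, at 14.4 FPKM in 2 month cells and 12.2 FPKM in 6 month cells. This is a 1.17-fold lower value and a log2 difference of -0.22. Both of its relatives in the table had more RNA than Otop1 at each age. Otop3 had 39.6 FPKM at 2 months against 40.7 FPKM at 6 months, while Otop2 had 18.5 and 12.5 FPKM. The Otop2 difference, -0.53, was larger in size than that of Otop1, and the levels of Otop2 and Otop1 came closer, with a ratio of 1.29 at 2 months and 1.02 at 6 months. Of the summed otopetrin RNA, Otop1 made up 19.8% at 2 months and 18.7% at 6 months. Which cells of the preparation the Otop2 and Otop3 RNA came from was not tested.

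The polycystin relatives of Pkd2l1 and Pkd1l3 were less abundant than these 2 genes. Pkd1 and Pkd2, which encode the proteins mutated in polycystic kidney disease, had 5.65 and 6.38 FPKM at 2 months against 6.62 and 6.99 FPKM at 6 months. Pkd2l2 had 1.43 FPKM at 2 months against 1.42 FPKM at 6 months, and Pkd1l2 was near 0 with 0.112 and 0.0986 FPKM. Pkd1l1 was not analysed here. Pkd2l2 was on the higher side at 6 months under every other scaling.

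Other genes linked to the acid response of type III cells were listed beside them, 7 in all. Of these, 3 were expressed and all 3 had higher values at 6 months under each scaling. The share of all expressed genes that were higher ran from 46.3% as deposited to 70.7% with the same sum without small RNA genes. With weakly expressed genes included, 5 of the 7 were higher and 1 lower as deposited, with a median log2 difference of 0.05. Kcnj2 encodes the inward rectifier potassium channel whose block by acid enhances the sour response, and had 5.20 FPKM at 2 months against 6.64 FPKM at 6 months. Car4 encodes a carbonic anhydrase on the surface of sour-sensing cells that takes part in the taste of carbonation, and had 4.23 and 4.87 FPKM. The pacemaker channel gene Hcn4 had 0.916 and 1.33 FPKM, so it counts as expressed only through the age where it was higher. Without Hcn4, 2 of 2 were higher with a median log2 difference of 0.23, and none of the 3 passed 1.5-fold. Asic2, an acid-sensing ion channel gene of the same list, was listed at 0 at both ages.

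Snap25 stands for the synapse of type III cells. It encodes a plasma membrane protein of the complex that fuses vesicles with the membrane, and has 8 exons at chr2:136713453-136782428 on the plus strand. Its level was 7.78 FPKM at 2 months against 8.71 FPKM at 6 months, a ratio of 1.12 and a log2 difference of 0.15. The relatives that serve membrane fusion in many cell types were more abundant and lower at 6 months. Snap23 had 17.0 FPKM at 2 months against 15.7 FPKM at 6 months, and Snap47 had 29.0 and 26.6 FPKM. Snap29 had 14.3 and 14.0 FPKM, and it was on the higher side when both ages had the same sum without small RNA genes. Snap23 RNA was 2.19 times that of Snap25 at 2 months and 1.80 times at 6 months.

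Expressed genes of vesicle release were mostly on the same side as Snap25. Of 23 such genes, 12 were expressed and 11 of these had a higher value at 6 months, beside 46.3% of all expressed genes. Syt1, a calcium sensor of vesicle release picked after its values were seen, counts as expressed only through its higher value at 6 months, and without it 10 of 11 were higher. The median log2 difference was 0.11 with and without Syt1, and none of the 12 passed 1.5-fold. The exception was Rab3a, which encodes a small GTPase of synaptic vesicles, with 9.47 FPKM at 2 months against 9.12 FPKM at 6 months. Rab3a too was on the higher side when both ages had the same sum without small RNA genes. Vamp2, the vesicle protein that binds Snap25 and the most abundant gene of the list, had 44.3 FPKM at 2 months against 49.6 FPKM at 6 months. Its ratio to Snap25 was nearly the same at both ages, 5.70 and 5.69. Cplx2, which encodes a complexin that controls fusion, had 7.87 and 8.33 FPKM. Stx1a, the syntaxin of the same fusion complex, was named after its values were seen. Stx1a had 4.60 FPKM at 2 months against 5.14 FPKM at 6 months, so that Snap25 stood at 1.69 times Stx1a at 2 months and 1.70 times at 6 months.

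**Figure D3:**
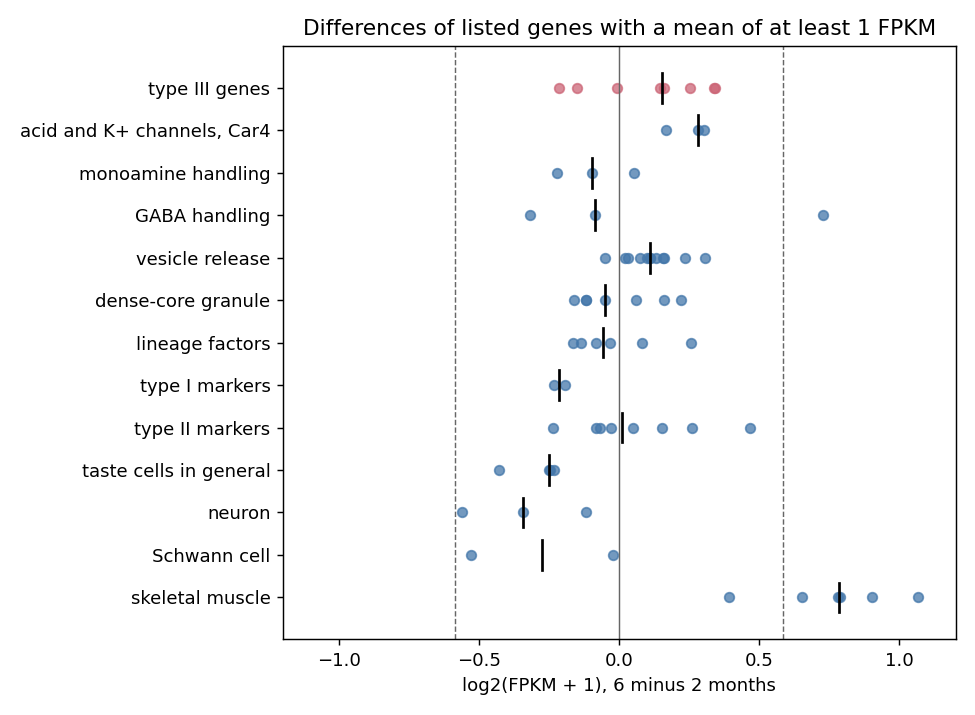
Difference in log2(FPKM + 1), 6 minus 2 months, of the expressed genes of each list, with 1 point per gene, a black bar at the median of the list and dashed lines at 1.5-fold. The type III genes have a median of 0.15 and the vesicle release genes a median of 0.11, and all genes of both lists lie inside the dashed lines.

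Gad1 and Ddc encode enzymes that make transmitters. Gad1 encodes a glutamate decarboxylase that makes GABA, and has 17 exons at chr2:70553072-70602014 on the plus strand. It was at 1.41 FPKM at 2 months against 2.04 FPKM at 6 months, a ratio of 1.45, the largest of the 8, and a log2 difference of 0.34. At such a low level the difference depends on the pseudocount, and it was 0.51 with 0.1 FPKM added in place of 1, then the largest of the 8. Genes of 1 to 5 FPKM passed the limit of 0.32 in the higher direction more often (4.04% of 3341 genes) than genes of at least 5 FPKM (2.56% of 9311 genes). The second gene for this enzyme activity, Gad2, was the more abundant one and had the opposite direction, with 5.92 FPKM at 2 months against 4.55 FPKM at 6 months and a log2 difference of -0.32. The ratio of Gad2 to Gad1 was therefore 4.21 at 2 months and 2.23 at 6 months. Gad1 held 19.2% of the summed RNA of both genes at 2 months and 31.0% at 6 months, while the sum itself was 7.33 FPKM at 2 months against 6.59 FPKM at 6 months. The summed value was thus the lower one at 6 months, although Gad1 itself was higher. Csad, a decarboxylase gene related to Gad1 in sequence, had 21.5 and 22.4 FPKM.

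Of 9 genes for GABA synthesis, transport and reception besides Gad1, with Gad2 counted among them, 3 were expressed. Of these, 1 was higher and 2 were lower at 6 months under each scaling. With weakly expressed genes included, 5 of the 9 were higher and 3 lower as deposited, with a median log2 difference of 0.01. Slc6a11 encodes a GABA transporter of the plasma membrane, and had 1.76 FPKM at 2 months against 3.56 FPKM at 6 months. Its log2 difference of 0.73 was the only one of the list past 1.5-fold, beside 1.05% of expressed genes higher by that much. Gabbr1, a subunit of the metabotropic GABA receptor, had 5.75 and 5.35 FPKM. Slc32a1, the transporter that loads GABA into vesicles, was listed at 0 at both ages.

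Ddc encodes the decarboxylase of the last step of serotonin and dopamine synthesis, and lies at chr11:11814101-11898144 on the minus strand with 15 exons. Its level was 5.48 FPKM at 2 months against 6.73 FPKM at 6 months, a ratio of 1.23 and a log2 difference of 0.25. Hdc, a related enzyme that makes histamine, had 3.39 and 3.75 FPKM. Of the other 12 monoamine genes listed, 3 were expressed, and 1 of them was higher and 2 were lower at 6 months under each scaling. Slc6a4, the plasma membrane transporter that takes up serotonin, had 4.63 FPKM at 2 months against 3.82 FPKM at 6 months. Slc6a2, the noradrenaline transporter, had 3.94 and 3.62 FPKM, and Maoa, which breaks monoamines down, had 10.5 and 11.0 FPKM. So the synthesis gene Ddc and the uptake gene Slc6a4 differed in opposite directions as deposited, by 0.25 and -0.22 on the log2 scale.

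Genes for the first step of serotonin synthesis and for vesicle loading had lower values than Ddc at both ages, and were picked after their values were seen. Tph1 and Tph2, the enzymes of the first step of serotonin synthesis, had 0.00927 and 0.0277 FPKM at 2 months against 0.00701 and 0.0646 FPKM at 6 months. Slc18a1 and Slc18a2, which load monoamines into vesicles, had 0.981 and 0.529 FPKM at 2 months against 0.893 and 0.490 FPKM at 6 months. The Tph1 and Tph2 values are too near 0 to compare between the ages. Dbh, which turns dopamine into noradrenaline, was listed at 0 at both ages.

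Chga encodes chromogranin A, a core protein of dense-core granules, and has 8 exons at chr12:102554969-102565028 on the plus strand. Of the 8 genes it had the smallest difference, with 3.81 FPKM at 2 months against 3.78 FPKM at 6 months and a log2 difference of -0.01, which was 0.01 with the same upper quartile and 0.07 with the same sum without small RNA genes. Chgb, the related chromogranin B gene, had 1.42 and 1.53 FPKM, and the ratio of Chga to Chgb was 2.68 at 2 months and 2.47 at 6 months. Among 13 granule genes besides Chga, with Chgb counted among them, 7 were expressed, 3 higher and 4 lower at 6 months, with a median log2 difference of -0.05. The split was 4 higher and 3 lower when both ages had the same sum without small RNA genes, where Cadps2 crossed. Cpe, the carboxypeptidase that trims peptide hormones, was the most abundant with 62.4 FPKM at 2 months against 57.4 FPKM at 6 months. Cadps2, which primes granules for release, had 13.9 and 13.4 FPKM, and the prohormone convertase gene Pcsk1 had 4.65 and 5.59 FPKM.

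Ncam1 encodes a cell adhesion molecule on the surface of type III cells and of nerve fibres, and lies at chr9:49502136-49798925 on the minus strand. It was the least abundant of the 8, at 1.14 FPKM at 2 months against 0.928 FPKM at 6 months, a 1.23-fold lower value and a log2 difference of -0.15. Its mean of 1.03 FPKM was just above the limit for an expressed gene, which it passed only through its value at 2 months. An antisense gene, Gm11149, shares 414 exonic bases or 6.84% of the Ncam1 transcript, and had 0.0472 and 0.115 FPKM. The related gene Ncam2 was near 0, with 0.0643 FPKM at 2 months against 0.131 FPKM at 6 months. Of 5 adhesion genes and polysialic acid enzymes besides Ncam1, with Ncam2 counted among them, 2 were expressed, 1 higher and 1 lower at 6 months under each scaling. L1cam, a neural adhesion molecule, had 18.8 FPKM at 2 months against 21.7 FPKM at 6 months, which was 16.5 and 23.4 times Ncam1. Nrcam had 1.47 and 1.36 FPKM, and St8sia4, which adds polysialic acid to Ncam1, had 0.193 and 0.215 FPKM.

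Because Ncam1, Snap25 and the vesicle genes are also active in neurons, markers of nerve tissue are given beside them. Of 10 neuron markers, 3 were expressed, and all 3 were lower at 6 months under each scaling. With weakly expressed markers included, 5 of the 10 were higher and 4 lower as deposited, with a median log2 difference of 0.005. The summed level of the 10 was 19.1 FPKM at 2 months against 13.2 FPKM at 6 months. Most of it was Tubb3, with 15.0 and 9.83 FPKM. Nefl had 1.96 and 1.33 FPKM and P2rx2 had 1.67 and 1.45 FPKM. Of 5 Schwann cell markers, whose sum was 19.4 FPKM at 2 months against 18.2 FPKM at 6 months, 2 were expressed and both were lower. With weakly expressed markers included, 1 of the 5 was higher and 4 were lower as deposited. The more abundant of the expressed 2, Mbp, had 16.2 and 16.0 FPKM and was on the higher side under every other scaling. Sox10 had 1.95 and 1.05 FPKM. Of 10 skeletal muscle markers 6 were expressed. All 6 were higher at 6 months under each scaling, beside 46.3% to 70.7% of all expressed genes. The summed level of the 10 was 13.3 FPKM at 2 months against 26.7 FPKM at 6 months, and the most abundant was Mylpf with 3.76 and 5.25 FPKM. The part of nerve and muscle RNA in the values of the 8 genes was not tested.

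Merkel cells of the epithelium share several presynaptic genes with type III cells. Their defining factor Atoh1 was listed at 0 at both ages, Piezo2 had 0.531 and 0.344 FPKM, and Isl1 had 0.0492 FPKM at 2 months against 0.0500 FPKM at 6 months. Of the 4 Merkel cell markers only Krt20, which taste cells also express, was above 1 FPKM, with 40.6 and 30.3 FPKM, and the sum was 41.2 FPKM at 2 months against 30.7 FPKM at 6 months.

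Genes of the other taste bud cells are given beside the type III genes. The summed level of the 8 type III genes was 72.6 FPKM at 2 months against 81.9 FPKM at 6 months, a ratio of 1.13. Most of that difference was Pkd1l3, and without it the sums were 46.4 and 48.4 FPKM, a ratio of 1.04. Of 8 type II cell genes, 4 were higher and 4 lower at 6 months, with a median log2 difference of 0.01 and sums of 379.5 and 364.0 FPKM. When both ages had the same sum without small RNA genes, 7 of the 8 type II genes were higher, beside 70.7% of the expressed genes. With Krt4 also left out of the sum, 6 of the 8 were higher, beside 66.8% of the expressed genes. The most abundant were Gng13, a G protein subunit, with 148.5 FPKM at 2 months against 125.9 FPKM at 6 months, the taste G protein gene Gnat3 with 84.7 and 79.9 FPKM, and the phospholipase gene Plcb2 with 53.3 and 55.1 FPKM. Of 3 type I markers 2 were expressed and both were lower under each scaling, Entpd2 with 66.1 and 57.7 FPKM and Kcnj1 with 9.25 and 7.71 FPKM, while Slc1a3 had 0.710 and 0.988 FPKM. Genes of taste cells in general were lower for 4 of 4 under each scaling, with a median log2 difference of -0.25 and sums of 778.0 FPKM at 2 months against 634.3 FPKM at 6 months. Krt19 had 308.3 and 262.1 FPKM, Krt8 had 234.3 and 196.7 FPKM, and Krt18 had 223.7 and 165.7 FPKM. Whether the type III genes differed from these lists was not tested, and how many cells of each type entered the libraries is unknown.

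Among 7 transcription factor genes of the taste and neuroendocrine lineages, 6 were expressed, 2 higher and 4 lower at 6 months, or 3 and 3 when both ages had the same sum without small RNA genes. Sox2, a factor of taste bud progenitors and cells and the most abundant of the list, had 146.9 FPKM at 2 months against 133.6 FPKM at 6 months, and Hes6 had 80.2 and 71.5 FPKM.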

How the data were processed

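Taste cell RNA of 2 and 6 month mice was sequenced from 3 pooled libraries per age. The authors aligned reads with TopHat2 2.0.7 to GRCm38/mm10, and quantified genes as FPKM with Cufflinks 2.1.1 and Cuffdiff, as named in the submitters' processing notes and the methods of the study. The deposited FPKM table has 1 pooled value per gene and age, and the library normalization of Cuffdiff is not given in the sources used here. A column of p-values from the authors' own comparison of the ages was not used.

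Differences were computed on log2(FPKM + 1), keeping genes with a mean of 1 FPKM or more, and with a limit of 1.5-fold on that scale. Alternatives were a pseudocount of 0.1, no filter or a mean of 5 FPKM or more, limits of 0.32 on the log2 scale and of 2-fold, the same upper quartile, the same sum without 769 microRNA and small nucleolar RNA genes, that sum also without Krt4 or genes listed at 0 at an age, and leaving out each gene. The small RNA genes made up 8.72% of summed FPKM in 2 month cells and 10.9% in 6 month cells. Ratios and sums were taken on FPKM. The 8 genes and the lists were chosen with earlier results of these data known. Genes named are the 8, their relatives and, of each other list, the 3 with the highest mean FPKM and up to 5 expressed genes past 1.5-fold. Genes listed at 0, overlapping genes, and those said to be picked after their values were seen are outside that rule. Some genes of the lists are counted but not reported here by name. Positions are those of GENCODE M21 on GRCm38. Computation was done in Python 3.11.15 with pandas 2.3.3, numpy 2.4.6 and matplotlib 3.10.9, and was tested on simulated data.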

Additional observations from a re-analysis of the deposited data

How the results depend on the processing

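With a limit of 0.32 on the log2 scale in place of 1.5-fold, the count of type III genes past it was 2 in place of 0, as the smaller limit admits more genes. It was 0 at 2-fold, under every scaling tried and with a pseudocount of 0.1. The median log2 difference of the 8 genes was positive under every alternative tried, at 0.17 with a pseudocount of 0.1 and between 0.15 and 0.16 without 1 gene at a time. With that pseudocount, the log2 difference was 0.51 for Gad1 and -0.27 for Ncam1. The share of all genes past 1.5-fold was 2.77%, and 1.60% without the filter, where genes near 0 FPKM enter the denominator. It was 2.81% among genes of 5 FPKM or more and 3.63% with the smaller pseudocount. Leaving Krt4 or all genes listed at 0 at an age out of the summed FPKM, alternatives chosen after seeing the data, gave medians of 0.23 and 0.23. Of 67 alternative values, 63 lay within 0.1 of the main value on the log2 scale or, for counts and shares, within 1.5 times of it. Within that margin Chga crossed 0 and the count of higher genes was 6 in place of 5. Leaving out genes with a mean under 1 FPKM left the list as it was, since the means of all 8 had reached that limit. Without Ncam1, which reached it through its value at 2 months only, 5 of 7 genes were higher, with a median log2 difference of 0.16. No paired analysis was possible because values used here are pooled per age, and for the same reason no replicate could be left out. The depth is unknown, so the precision of the weakest genes, Ncam1 and Gad1, cannot be stated.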

Other observations

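Several other cell types of the tongue are represented in the same preparation. Of 6 keratinocyte genes 5 were expressed, and 4 of these had a lower value at 6 months under each scaling, or 3 of 4 without Krt4, which counts as expressed only through its value at 2 months. Krt5, a keratin of basal cells, had 2179.8 FPKM at 2 months against 1961.7 FPKM at 6 months, while Krt14, its partner, had 1286.9 and 1533.0 FPKM. Krt10, a keratin of differentiated cells, had 149.7 and 70.5 FPKM. Krt4 was at 7333.7 FPKM at 2 months but was listed at 0 at 6 months, and Krt13 was listed at 0 at both ages. Since these keratins are abundant in tongue epithelium, a listed 0 in this table can be a failed estimate, which bears on each gene said above to be listed at 0.

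Genes of the lingual glands were lower at 6 months for 3 of 3 under each scaling. Lipf, the lingual lipase gene, had 83.7 FPKM at 2 months against 14.7 FPKM at 6 months, Bpifb1 had 28.6 and 10.6 FPKM, and Dcpp1 had 16.3 and 13.0 FPKM. Of 4 leukocyte markers 2 were expressed. Lyz2 had 293.3 FPKM at 2 months against 253.7 FPKM at 6 months, whereas the pan-leukocyte gene Ptprc had 1.54 and 1.65 FPKM and the macrophage gene Emr1 had 0.650 and 0.813 FPKM. Among the skeletal muscle markers, 5 passed 1.5-fold in the higher direction, beside 1.05% of all expressed genes. Tnnc2 had 2.14 FPKM at 2 months against 5.57 FPKM at 6 months, Mb had 1.82 and 4.28 FPKM, Acta1 had 1.98 and 4.15 FPKM, Tnnt3 had 1.92 and 4.02 FPKM and Ckm had 1.16 and 2.39 FPKM. The part of these cells in the values of the type III genes was not tested.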
